A study of Mus musculus with 4 samples.

Results

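Brain organoids given agonists of the retinoic acid receptors gamma and beta were set against organoids given vitamin A, gene by gene, in spatial transcriptomes of tissue sections. The comparison rests on 2 of the 4 sections of the series, BMS961+BMS641 with 365 spots and VitaminA with 552 spots. A gene was taken into the comparison when it was listed in both sections and had at least 5 ppm, a share of the signal of a section, in either of them. That left 14959 of the 20512 genes listed in both, and of the 22218 listed in any section. Tmem35b lay just inside that limit and Grin3b just outside it, both at 5.00 ppm after rounding. A gene's level here is its signal averaged across the spots of the section, written as ppm of the signal of all its genes.

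All organoids came from mouse embryonic stem cells of the CARLIN/Cas9 genotype, which carry a lineage barcode and the Cas9 nuclease. Cells were seeded at 5000 per well, exposed early to an inhibitor of TGF-beta type receptor kinases, embedded in Matrigel and grown with B27 supplement lacking vitamin A until day 9. From day 9 the VitaminA organoids received 2% B27 with vitamin A, and the others a ligand. The share of B27 is given as 2% for every group. BMS961 and BMS641, agonists of receptors gamma and beta, were given together at 0.1 µM. ATRA, all-trans retinoic acid, which activates all 3 receptors, and BMS753, an agonist of receptor alpha, were given at 1 µM. Doses therefore differed, and levels of those sections are printed beside the comparison without a comparison of the compounds. Sections were cut after 3 months from molds that hold several organoids, so a section may hold more than 1. Each treatment has 1 section, so no difference between treatments was tested, and every value below describes the sections, not the treatments. Each section was split into 4 quadrants of spots, whose ranges show variation within a section alone.

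Retinoic acid receptors alpha, beta and gamma are nuclear receptors that bind DNA as pairs with the retinoid X receptors. Without ligand they hold corepressor complexes at their target genes, and an agonist exchanges these for coactivators. Cells make retinoic acid from vitamin A through retinol dehydrogenases and then aldehyde dehydrogenases of the Aldh1a family, carry it on Crabp proteins and break it down with Cyp26 enzymes. In the embryo retinoic acid patterns the hindbrain and spinal cord through Hox genes and promotes the exit of progenitors to neurons.

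The receptor pair binds direct repeats of a short half-site. Promoter windows of 27025 mouse genes from RefSeq (GRCm38.p6), running from 250 bases before to 50 bases after the gene start, were searched on both strands for such repeats. The half-site was AGGTCA or one of its variants, which were AGTTCA with a changed middle, GGGTCA with a changed first base and GGTTCA with both changes. The spacers were 1, 2 or 5 bases (N, NN or NNNNN between the half-sites). Such a repeat lay in 0.688% of all genes with a window, and a 5-base repeat in 0.115%. The 2 genes shown are those of the list of known retinoic acid responders whose window held a repeat, out of 12 with a window, and both held the 5-base form. Rarb encodes receptor beta itself, and Cyp26a1 the main enzyme that breaks retinoic acid down. Each run is written in the direction of the gene, with only the half-sites of the repeat in capitals. The Rarb run lies at chr14:16575483-16575559 on the minus strand, with the repeat from 53 to 37 bases before the start. That of Cyp26a1 lies at chr19:37697746-37697822 on the plus strand, with the repeat from 32 to 16 bases before the start on the opposite strand.
Rarb: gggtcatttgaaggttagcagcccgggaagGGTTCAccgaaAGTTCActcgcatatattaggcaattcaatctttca
Cyp26a1: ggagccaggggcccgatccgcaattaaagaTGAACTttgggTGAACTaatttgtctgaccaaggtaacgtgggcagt

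Neither of these genes separated the sections. Rarb stood at 178 ppm in VitaminA, 152 ppm in ATRA, 187 ppm in BMS753 and 153 ppm in BMS961+BMS641, so all 4 sections lay close together. Its quadrants ran from 139 to 168 ppm in BMS961+BMS641 and from 165 to 189 ppm in VitaminA, and these ranges overlapped. Cyp26a1 was under the 5 ppm limit in both, at 2.81 and 2.98 ppm. Of the genes compared, 11818 had a window and 50 of these held a repeat (0.423%). Repeats lay in 5 of 1213 genes that were at least 2-fold higher (0.412%) and in 13 of 2341 that were at least 2-fold lower (0.555%). Among genes whose level stood 4-fold above every other section, none of 304 held one in BMS961+BMS641 and 3 of 280 (1.07%) did in VitaminA. A match is a stretch of letters in a short window, and nothing follows from its absence.

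The 2 sections were alike in how many genes they detected by the definition below, but not in how many had a value above 0. In a spot, runs of values that follow the order of genes in the file were read as ties, and the lowest such run is called the lowest class here. In 364 of 365 BMS961+BMS641 spots and 551 of 552 VitaminA spots that class continued in file order just where the genes listed at 0 ended, to within 0.5% of the zeros. A value in the lowest class therefore reflects the place of a gene in the file. The share of spots in which a gene lies above this class is used below as its detection. The median spot had 4462 genes above the class in BMS961+BMS641 and 4659 in VitaminA. Every spot had 12735 of 20800 genes above 0 in BMS961+BMS641 and 8604 of 21639 in VitaminA. The lowest class of the median spot therefore held more genes in BMS961+BMS641. The class held 6.75% and 5.64% of the signal, and the 10 genes with most signal took 16.5% and 14.4%. The values used here are not counts, which leaves the depth unknown and allows no counting interval. Defining genes of neural progenitors and astroglia ranged from the edge of detection to most spots. Nes and Vim of neural progenitors and Gfap of astroglia were all under 5 ppm in both, and levels ran from 0.356 ppm (Vim) to 1.99 ppm (Nes) in BMS961+BMS641 and from 1.37 ppm (Vim) to 3.84 ppm (Gfap) in VitaminA. Slc1a3, a glutamate transporter of radial glia and astroglia, had 27.2 ppm against 39.0 ppm and was detected in 39.7% and 38.6% of spots, and Ptprz1, Msi2, Slc1a2 and Nfia of the same lists are described below.

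Most genes were at similar levels, and the tails were long on both sides. The log2 ratio of BMS961+BMS641 over VitaminA, with 1 ppm added to both levels, had a median of -0.25 and quartiles of -0.83 and 0.26. At least 2-fold higher in BMS961+BMS641 were 1519 genes, 10.2% of those compared, and at least 2-fold lower were 2972 genes (19.9%). The other 10468 lay within 2-fold. After ratios were centred on their median, which by its construction evens the sides, 2029 genes were higher (13.6%) and 2133 lower (14.3%). A gene with a ratio from -1.25 to -1 is therefore called lower here and not after centring. With the lowest class set to 0, 1549 genes (10.4%) were higher and 4222 (28.2%) lower. Of the higher genes 1420 kept their call in that setting, as did 2954 of the lower. Further out the sides were closer to even, with 264 genes at a log2 ratio of 3 or more and 281 at -3 or less, and 44 genes at 5 or more and 34 at -5 or less. Counts of list members below are read against 10.2% and 19.9%, and list medians against -0.25. They describe the lists and were not tested.

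**Figure D1:**
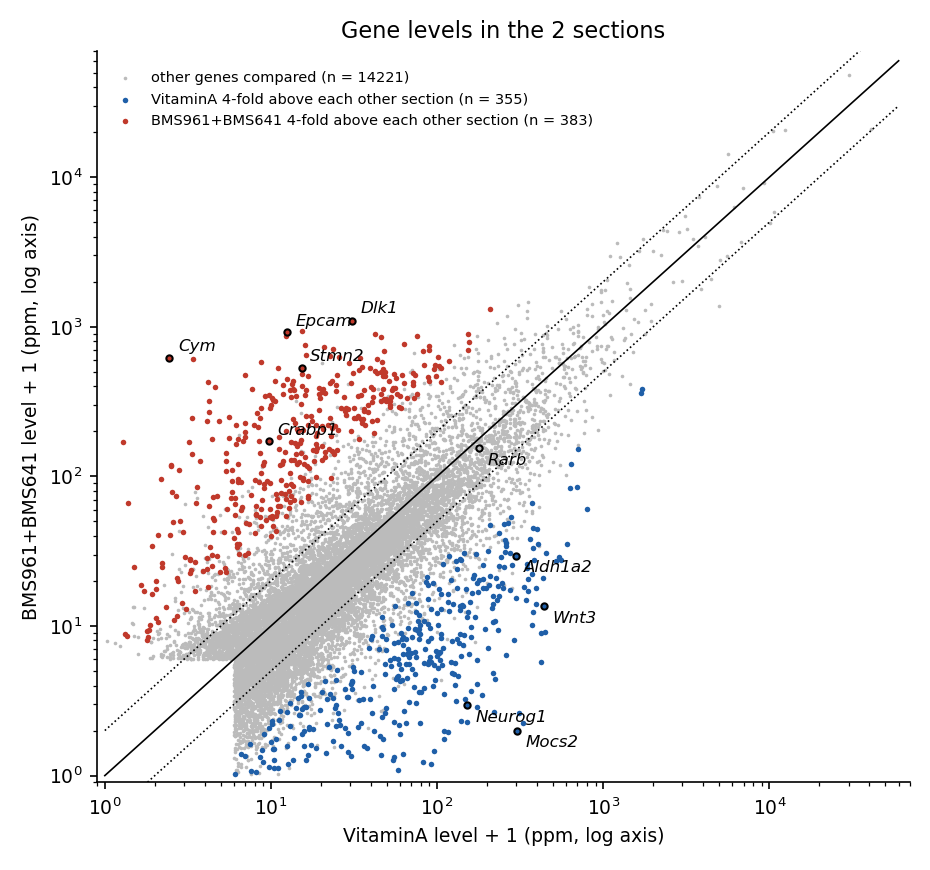
Level of each of the 14959 genes compared in VitaminA (x axis) and BMS961+BMS641 (y axis), with 1 ppm added, on log axes. The solid line marks equal levels and the dotted lines 2-fold. Red genes stand 4-fold above each other section in BMS961+BMS641 (383) and blue genes do so in VitaminA (355). Both groups lie away from the line of equal levels because they were chosen by these levels, while Rarb lies near it.

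Of the receptors, none was 2-fold higher and 1 of 6, Rxrb, was 2-fold lower. The targets of the agonists stood at 53.6 ppm in VitaminA, 15.3 ppm in ATRA, 34.2 ppm in BMS753 and 27.2 ppm in BMS961+BMS641 for Rarg and at the near equal levels given above for Rarb. Rarg was lower in BMS961+BMS641 than in VitaminA by a log2 ratio of -0.95, just within 2-fold, and its quadrants did not overlap (20.7 to 36.2 ppm against 40.4 to 68.7 ppm). Rara, the receptor that the pair does not target, had 62.3 ppm against 72.2 ppm and Rxra 56.2 ppm against 63.9 ppm. Rxrb stood at 7.17 ppm in VitaminA, 1.24 ppm in ATRA, 0.923 ppm in BMS753 and 1.04 ppm in BMS961+BMS641, and was detected in 4.38% of BMS961+BMS641 spots. Rxrg went the other way, with 24.6 ppm against 16.1 ppm, 0.58, and overlapping quadrants.

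Genes of retinoid synthesis and reduction were, like all genes, more often lower than higher in BMS961+BMS641. Of 10 such genes 1 was higher (10.0%, beside 10.2% of all genes) and 4 were lower (40.0%, beside 19.9%). With ratios centred 2 were higher and 3 lower, and the list median before centring was -0.56. The largest difference was that of Aldh1a2, the main enzyme of retinoic acid synthesis in the embryo, at 296 ppm in VitaminA, 16.2 ppm in ATRA, 41.1 ppm in BMS753 and 28.5 ppm in BMS961+BMS641. VitaminA stood above the other 3 sections in that gene, which was detected in 94.0% of its spots and in 47.4% of those of BMS961+BMS641. Dhrs3, a reductase that returns retinal to retinol, stood at 28.8 ppm in VitaminA, 2.86 ppm in ATRA, 12.4 ppm in BMS753 and 5.53 ppm in BMS961+BMS641, a log2 ratio of -2.19. Aldh1a3, another synthesis enzyme, had 9.68 ppm against 33.4 ppm, -1.69, a ratio whose direction turned when the median over spots replaced the mean, since the gene was detected in under 50% of spots in both. Adh5, an alcohol dehydrogenase, was at 5.53 ppm against 13.5 ppm, -1.15 on the log2 scale. Rdh10, which oxidises retinol, lay at 11.0 ppm against 22.9 ppm, just within 2-fold. The member that was higher was Rpe65, the isomerase of the visual cycle, at 11.5 ppm in VitaminA, 1.94 ppm in ATRA, 6.97 ppm in BMS753 and 27.3 ppm in BMS961+BMS641.

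Of 6 genes of retinoid carriers and degradation 1 was higher and 1 lower, and both were carriers. Rbp4, which carries retinol in plasma, stood at 36.7 ppm in VitaminA, 1.71 ppm in ATRA, 2.10 ppm in BMS753 and 0.537 ppm in BMS961+BMS641, and Crabp1, which binds retinoic acid in the cytoplasm, at 8.76 ppm in VitaminA, 11.0 ppm in ATRA, 2.44 ppm in BMS753 and 171 ppm in BMS961+BMS641. Rbp4 was thus high in VitaminA alone and Crabp1 in BMS961+BMS641 alone. The log2 ratios were -4.62 and 4.14. Crabp1 was detected in 85.2% of BMS961+BMS641 spots and 17.4% of VitaminA spots, and its quadrants ran from 118 to 198 ppm and from 5.47 to 12.6 ppm. The retinol receptor and the degrading enzymes were closer, with 5.53 ppm against 5.82 ppm for Stra6, the receptor of retinol-bound Rbp4, 27.3 ppm against 35.1 ppm for Cyp26b1 and 10.1 ppm against 14.2 ppm for Cyp26c1. Crabp2 was under the limit in both, at 0.824 and 0.833 ppm.

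Among 15 genes known to respond to retinoic acid 1 was higher and 4 were lower (1 and 2 with ratios centred), with a median of -0.70. Cdx1, a caudal factor that retinoic acid induces in the embryo, stood at 55.5 ppm in VitaminA, 5.17 ppm in ATRA, 9.90 ppm in BMS753 and 3.45 ppm in BMS961+BMS641, a log2 ratio of -3.67. Its level in VitaminA was the only one above 10 ppm. Stra8, the gene that retinoic acid switches on as germ cells enter meiosis, stood at 19.1 ppm in VitaminA, 47.3 ppm in ATRA, 32.7 ppm in BMS753 and 45.8 ppm in BMS961+BMS641. All 3 ligand sections thus lay above VitaminA in level. In detection BMS753 did not, as both had Stra8 in 19.4% of spots, against 36.3% in ATRA and 45.8% in BMS961+BMS641. Tgm2, a transglutaminase, and Hoxb4 were lower, with 6.47 ppm against 16.5 ppm and 5.86 ppm against 14.1 ppm, and neither was past 2-fold with ratios centred. Meis2, a Hox cofactor, was within 2-fold, at 154 ppm against 168 ppm.

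Coregulators were mixed. Of 15 corepressors and coactivators 1 was 2-fold higher and 4 were lower, or 1 and 3 with ratios centred. Their median was -0.58, while their summed level was 1577 ppm against 1294 ppm. Ncor1, a corepressor that unliganded receptors recruit, was near equal, at 33.1 ppm against 40.9 ppm. Sin3a, a scaffold of histone deacetylase complexes, stood at 76.4 ppm in VitaminA, 9.19 ppm in ATRA, 20.5 ppm in BMS753 and 14.1 ppm in BMS961+BMS641. Lower as well were Ncoa2, a coactivator, with 50.4 ppm against 124 ppm, -1.29, Tbl1x, a subunit of the corepressor complexes, with 17.1 ppm against 46.4 ppm, -1.39, and Med1, a Mediator subunit, with 7.13 ppm against 16.6 ppm, -1.11 on the log2 scale.

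**Figure D2:**
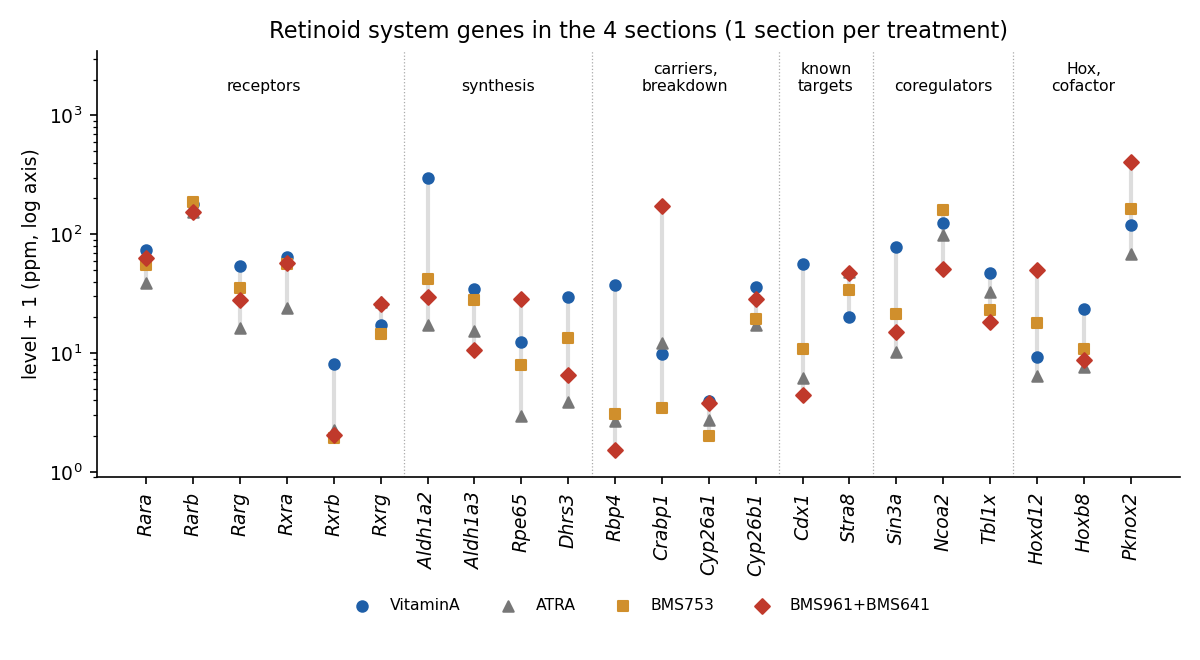
Level plus 1 ppm of 22 genes of the retinoid system and its targets in each section, on a log axis, with 1 point per section and a grey bar from the lowest to the highest. Rarb and Rara sit close together in all sections, whereas Aldh1a2, Rbp4 and Cdx1 are highest in VitaminA and Crabp1 and Pknox2 in BMS961+BMS641.

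Hox genes, which give positions along the hindbrain and trunk, were weakly detected and for the most part similar. Of 31 listed in both sections 17 reached the 5 ppm limit, and 1 of these was higher and 3 were lower, or 1 and 1 with ratios centred. Hoxd12 was the higher one, at 8.32 ppm in VitaminA, 5.39 ppm in ATRA, 16.9 ppm in BMS753 and 49.2 ppm in BMS961+BMS641, with detection in 47.1% of BMS961+BMS641 spots against 8.33%. Hoxd3 was within 2-fold, with 108 ppm against 74.6 ppm. The lower ones were Hoxb4, Hoxd11 (7.27 ppm against 17.5 ppm) and Hoxb8 (7.78 ppm against 22.4 ppm), of which Hoxb8 alone was still past 2-fold with ratios centred, and Hoxb8 turned direction with the median over spots. Their cofactor Pknox2 was higher, with 402 ppm against 119 ppm, 1.75, and the related Pknox1 was not, with 14.1 ppm against 22.8 ppm, -0.66 on the log2 scale.

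Forebrain factors had no member that was 2-fold higher, and 8 of 15 were 2-fold lower, or 6 with ratios centred. Their median was -1.10. Lhx6, a factor of migrating cortical interneurons, stood at 73.5 ppm in VitaminA, 11.1 ppm in ATRA, 15.4 ppm in BMS753 and 5.24 ppm in BMS961+BMS641, and was detected in 69.2% of VitaminA spots. Lower too were Lhx8 (3.92 ppm against 16.9 ppm), Tbr1 of early cortical neurons (4.18 ppm against 15.8 ppm), Six3 (3.15 ppm against 11.0 ppm), Eomes of intermediate progenitors (1.53 ppm against 5.47 ppm), Bcl11b of deep-layer neurons (55.4 ppm against 120.5 ppm) and Dlx5 (4.55 ppm against 10.9 ppm). Of those named, all but Lhx6 and Bcl11b were under 20 ppm in both sections. Bcl11b was no longer past 2-fold once ratios were centred. Emx1, Nkx2-1 and Tcf7l2 were near equal, the last at 137 ppm against 143 ppm.

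Midbrain and hindbrain factors moved both ways, 2 of 12 being higher and 4 lower. Egr2, also known as Krox20, which marks hindbrain segments and Schwann cells, stood at 7.80 ppm in VitaminA, 1.03 ppm in ATRA, 1.66 ppm in BMS753 and 68.9 ppm in BMS961+BMS641. Lmx1a, a factor of the roof plate and of dopaminergic progenitors, stood at 97.5 ppm in VitaminA, 83.9 ppm in ATRA, 112 ppm in BMS753 and 467 ppm in BMS961+BMS641. Both were 4-fold above every other section. En1 of the midbrain-hindbrain boundary showed the reverse, at 86.8 ppm in VitaminA, 3.60 ppm in ATRA, 18.4 ppm in BMS753 and 4.59 ppm in BMS961+BMS641, and Pax2, of the same region, had 51.6 ppm against 119 ppm, -1.19. Tlx3 (0.983 ppm against 6.85 ppm) and Gata2 (10.2 ppm against 32.1 ppm) were lower as well. Of 13 spinal cord factors 1 was higher and 3 were lower, or 1 and 1 with ratios centred. Dbx2, of ventral progenitor domains, was the higher one, at 32.8 ppm in VitaminA, 31.5 ppm in ATRA, 64.5 ppm in BMS753 and 132 ppm in BMS961+BMS641, with detection in 71.8% of spots against 15.0%.

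Proneural genes included one of the widest gaps of the comparison. Neurog1, which commits progenitors to a neuronal fate, stood at 150.4 ppm in VitaminA, 0.859 ppm in ATRA, 3.30 ppm in BMS753 and 1.95 ppm in BMS961+BMS641, and 82.6% of VitaminA spots detected it against 6.03%. Hey2, a repressor downstream of Notch, stood at 232 ppm in VitaminA, 43.4 ppm in ATRA, 70.3 ppm in BMS753 and 35.2 ppm in BMS961+BMS641. Outside VitaminA, Hey2 was detected in under 10% of spots, so its remaining signal lay in the lowest class, and with that class at 0 its log2 ratio went from -2.68 to -5.09. Id3, an inhibitor of proneural factors, was higher, with 10.3 ppm against 1.04 ppm. Of 11 genes of the list 1 was higher and 3 were lower.

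Progenitor genes were centred near equality, with a median of -0.00 over 13 genes, 2 higher and 1 lower. Ptprz1, a phosphatase of radial glia, stood at 23.3 ppm in VitaminA, 16.6 ppm in ATRA, 36.6 ppm in BMS753 and 215 ppm in BMS961+BMS641, and 88.5% of BMS961+BMS641 spots detected it. Fabp7, a fatty acid carrier of radial glia, had 7.26 ppm against 0.960 ppm and Sox3, a neural progenitor factor, 1.95 ppm against 12.2 ppm. Msi2, Prom1, Tnc and Cdh2 lay within 0.4 of a log2 ratio of 0, with Msi2 at 435 ppm against 348 ppm.

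Notch pathway genes held another wide gap. Dlk1, a non-canonical Notch ligand that is an imprinted gene, stood at 29.9 ppm in VitaminA, 9.09 ppm in ATRA, 44.8 ppm in BMS753 and 1091 ppm in BMS961+BMS641, a log2 ratio of 5.14. It was detected in 98.9% of BMS961+BMS641 spots, with quadrants from 979 to 1255 ppm against 19.7 to 39.8 ppm. Rbpj, the DNA-binding partner of Notch, had 54.4 ppm in VitaminA, 23.6 ppm in ATRA, 40.7 ppm in BMS753 and 208 ppm in BMS961+BMS641, and Dner, a neuronal Notch ligand, 152 ppm in VitaminA, 155 ppm in ATRA, 587 ppm in BMS753 and 631 ppm in BMS961+BMS641. BMS961+BMS641 was highest in both, and in Dner the BMS753 section was close to it. Maml2, a Notch coactivator, was lower, with 16.0 ppm against 38.0 ppm, though not past 2-fold with ratios centred. In all 3 of 19 genes were higher and 3 lower, or 4 and 1 with ratios centred.

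Pan-neuronal genes had a median of -0.75, below the -0.25 of all genes, and few passed 2-fold. Of 21 such genes 1 was higher and 4 were lower (19.0% against the 19.9% of all genes), and 2 and 1 with ratios centred. Stmn2, a microtubule regulator of growing axons, was the higher one, at 14.3 ppm in VitaminA, 12.7 ppm in ATRA, 40.4 ppm in BMS753 and 533 ppm in BMS961+BMS641. Syp, the synaptophysin of synaptic vesicles, stood the other way, at 99.7 ppm in VitaminA, 4.32 ppm in ATRA, 10.1 ppm in BMS753 and 4.28 ppm in BMS961+BMS641. Both were detected in most spots of one section, 97.3% for Stmn2 and 71.7% for Syp. Map2 and Tubb3, cytoskeletal proteins of neurons, were within 2-fold, with 70.6 ppm against 92.3 ppm and 24.0 ppm against 32.9 ppm, as were Rbfox3, which encodes NeuN, with 199 ppm against 313 ppm, and Dcx of migrating neurons with 30.4 ppm against 51.8 ppm. Snap25, Gap43 and Mapt were lower by ratios between -1.11 and -1.07, and Syt1 and Ncam1 higher without passing 2-fold (0.57 and 0.96).

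Genes of vesicle release had a median of -0.48 and adhesion genes of the synapse one of -0.22. Among 25 genes of vesicle release 1 was higher and 4 were lower. Syn2, a synapsin, had 55.2 ppm against 26.0 ppm. Of 24 adhesion genes 1 was higher and 4 were lower, or 2 and 2 with ratios centred. Shank3, a postsynaptic scaffold, was the higher one, with 49.7 ppm in VitaminA, 50.2 ppm in ATRA, 31.9 ppm in BMS753 and 134 ppm in BMS961+BMS641. Lower were Cntnap4 (95.4 ppm against 283 ppm), Lrrtm4 (141 ppm against 353 ppm), Nlgn1 (123 ppm against 285 ppm) and Shank1 (42.6 ppm against 86.8 ppm). Nlgn1 and Shank1 were no longer past 2-fold with ratios centred.

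Receptors of glutamate split within families. Of 25 subunit genes 4 were higher and 7 lower. Grm5, a metabotropic receptor, stood at 152 ppm in VitaminA, 147 ppm in ATRA, 161 ppm in BMS753 and 897 ppm in BMS961+BMS641, and Grm4, of another metabotropic group, at 219.8 ppm in VitaminA, 113 ppm in ATRA, 58.9 ppm in BMS753 and 38.8 ppm in BMS961+BMS641. Among ionotropic subunits Gria3 of the AMPA type had 59.4 ppm in VitaminA, 28.9 ppm in ATRA, 55.9 ppm in BMS753 and 284 ppm in BMS961+BMS641, and Grik2 of the kainate type 550.1 ppm in VitaminA, 150.0 ppm in ATRA, 185 ppm in BMS753 and 118 ppm in BMS961+BMS641. Glutamatergic identity genes had no higher member, and 3 of 13 were lower, while the vesicular transporters were within 2-fold, Slc17a7 at 15.7 ppm against 21.6 ppm and Slc17a6 at 24.2 ppm against 20.3 ppm.

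A single gene of GABA synthesis was higher. Gad1, which makes GABA, stood at 22.2 ppm in VitaminA, 18.2 ppm in ATRA, 41.9 ppm in BMS753 and 209 ppm in BMS961+BMS641, detected in 90.4% of BMS961+BMS641 spots. Its paralog Gad2 had 19.5 ppm against 26.2 ppm and Slc32a1, which loads GABA into vesicles, 1.05 ppm against 10.1 ppm. The genes of GABA synthesis, transport and interneurons thus had 1 of 15 higher and 5 lower, or 1 and 3 with ratios centred. None of 17 receptor subunit genes was higher, and 6 were lower, or 1 and 5 with ratios centred. Gabbr1, of the metabotropic receptor, had 79.1 ppm in VitaminA, 65.4 ppm in ATRA, 15.4 ppm in BMS753 and 9.80 ppm in BMS961+BMS641.

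Serotonin and dopamine genes had 2 of 24 higher and 10 lower, or 2 and 7 with ratios centred. Tph1, an enzyme of serotonin synthesis, stood at 105 ppm in VitaminA, 5.76 ppm in ATRA, 30.4 ppm in BMS753 and 3.34 ppm in BMS961+BMS641, and the neuronal Tph2 at 55.8 ppm against 147 ppm, -1.38 on the log2 scale. Lower as well were the receptors Htr7 (23.6 ppm against 78.1 ppm) and Htr6 (4.88 ppm against 21.0 ppm), the vesicular transporter Slc18a1 (2.97 ppm against 17.5 ppm), Nr4a2 of dopaminergic neurons (26.9 ppm against 114 ppm) and the dopamine receptor Drd2. Drd2 stood at 194 ppm in VitaminA, detected in 85.5% of its spots, and had a log2 ratio of -2.80. The higher ones were both serotonin receptors. Htr5a stood at 10.1 ppm in VitaminA, 11.2 ppm in ATRA, 5.91 ppm in BMS753 and 181 ppm in BMS961+BMS641 and Htr3a at 7.59 ppm in VitaminA, 4.85 ppm in ATRA, 11.4 ppm in BMS753 and 52.4 ppm in BMS961+BMS641. Th, the first enzyme of dopamine synthesis, was near equal at 7.64 ppm against 6.47 ppm.

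Ion channel and guidance genes differed both ways. Of 42 potassium channel genes 5 were higher and 8 lower, or 8 and 5 with ratios centred. Kcnip1, a partner of Kv4 channels, stood at 207 ppm in VitaminA, 185 ppm in ATRA, 298 ppm in BMS753 and 1312 ppm in BMS961+BMS641, and was 4-fold above every other section. Among calcium and sodium channel genes, 3 of 29 were higher and 3 lower, or 5 and 1 with ratios centred, and Cacna1i, a T-type channel, had 712 ppm against 172 ppm, 2.05. Axon guidance genes had 2 of 46 higher and 12 lower, or 5 and 7 with ratios centred. The paralogs Sema5b and Sema5a went apart, at 94.6 ppm in VitaminA, 53.7 ppm in ATRA, 78.7 ppm in BMS753 and 520.1 ppm in BMS961+BMS641 for Sema5b and 333 ppm in VitaminA, 107 ppm in ATRA, 139.5 ppm in BMS753 and 66.1 ppm in BMS961+BMS641 for Sema5a. Epha5 was lower, with 44.7 ppm against 286 ppm, -2.65, and so was Nrp1, a semaphorin coreceptor, with 21.4 ppm against 79.1 ppm, -1.84 on the log2 scale.

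Astroglia genes had none of 15 higher and 3 lower (20.0%, beside 19.9% of all genes), or 2 and 2 with ratios centred. Slc1a2, a glutamate transporter, was at 97.9 ppm in VitaminA, 37.4 ppm in ATRA, 57.4 ppm in BMS753 and 27.5 ppm in BMS961+BMS641. Aqp4, a water channel, and Glul, glutamine synthetase, were low in both, with 4.96 ppm against 15.4 ppm and 3.86 ppm against 9.58 ppm. Nfia and Nfib, factors of glial fate, were equal, with 221 ppm against 215 ppm for Nfia, while Sox9 and Slc4a4 were higher without passing 2-fold (0.97 and 0.72). In the cytokine pathway that drives reactive astroglia, Stat3 stood at 30.5 ppm in VitaminA, 676 ppm in ATRA, 24.1 ppm in BMS753 and 173 ppm in BMS961+BMS641, so ATRA was above BMS961+BMS641 there. Its feedback inhibitor Socs3 had 2.39 ppm against 12.3 ppm and the shared receptor subunit Il6st 5.11 ppm against 11.5 ppm. Of 14 reactive astroglia and cytokine pathway genes 2 were higher (14.3%) and 4 lower (28.6%), or 3 and 2 with ratios centred. The higher ones were Stat3 and Steap4, the latter with 26.6 ppm against 8.31 ppm. The median of that list was 0.10, above the -0.25 of all genes.

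Oligodendrocyte genes had none of 16 higher and 7 lower, 6 with ratios centred. Mbp, of the myelin sheath, stood at 141 ppm in VitaminA, 80.5 ppm in ATRA, 61.4 ppm in BMS753 and 39.9 ppm in BMS961+BMS641. Lower too were Cspg4 of precursors (12.1 ppm against 53.3 ppm), Enpp6 of newly formed cells (21.9 ppm against 79.2 ppm), Ugt8a, which makes myelin lipids (14.7 ppm against 53.1 ppm), Cldn11 (8.86 ppm against 26.0 ppm) and the lineage factor Sox10 (0.968 ppm against 10.2 ppm). Mog, Mag, Myrf and Opalin were within 0.2 of equality, with Mog at 72.5 ppm against 80.1 ppm. Fewer cells of a type and less RNA per cell cannot be told apart in spots that may hold several cells.

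Genes of the Wnt, FGF and BMP pathways were, like all genes, more often lower than higher in BMS961+BMS641. Wnt3 stood at 438 ppm in VitaminA, 17.0 ppm in ATRA, 28.4 ppm in BMS753 and 12.5 ppm in BMS961+BMS641, and quadrants ran from 398 to 465 ppm in VitaminA and from 10.0 to 16.5 ppm in BMS961+BMS641. Rspo2, which strengthens Wnt signals, had 252 ppm in VitaminA, 45.9 ppm in ATRA, 48.3 ppm in BMS753 and 47.3 ppm in BMS961+BMS641. Wnt3a (12.4 ppm against 58.1 ppm) and Wnt11 (18.4 ppm against 95.1 ppm) were lower as well, and over the Wnt list 5 of 54 genes were higher and 8 lower, or 6 and 5 with ratios centred. Fgf2 stood at 137 ppm in VitaminA, 21.3 ppm in ATRA, 18.4 ppm in BMS753 and 7.80 ppm in BMS961+BMS641 and Fgf9 at 7.37 ppm against 28.7 ppm, whereas the receptor Fgfr4 had 11.2 ppm in VitaminA, 20.5 ppm in ATRA, 18.7 ppm in BMS753 and 144 ppm in BMS961+BMS641. FGF genes had 3 of 24 higher and 7 lower. Of 35 BMP and TGF-beta genes none was higher and 8 were lower, or 6 with ratios centred, with Tgfb2 at 26.0 ppm against 67.8 ppm.

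Hedgehog pathway genes differed both ways. Gli1, a transcription factor that is also a target of the pathway, was at 168 ppm in VitaminA, 17.8 ppm in ATRA, 16.7 ppm in BMS753 and 10.4 ppm in BMS961+BMS641, and Gli3, which acts mainly as a repressor, at 145 ppm in VitaminA, 114 ppm in ATRA, 83.1 ppm in BMS753 and 32.2 ppm in BMS961+BMS641. Sufu, which restrains Gli factors, was at 60.2 ppm in VitaminA, 54.6 ppm in ATRA, 79.6 ppm in BMS753 and 474 ppm in BMS961+BMS641. Gli1 was high in VitaminA alone and Sufu in BMS961+BMS641 alone. Across the 17 genes 2 were higher and 6 lower, or 4 and 4 with ratios centred.

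**Figure D3:**
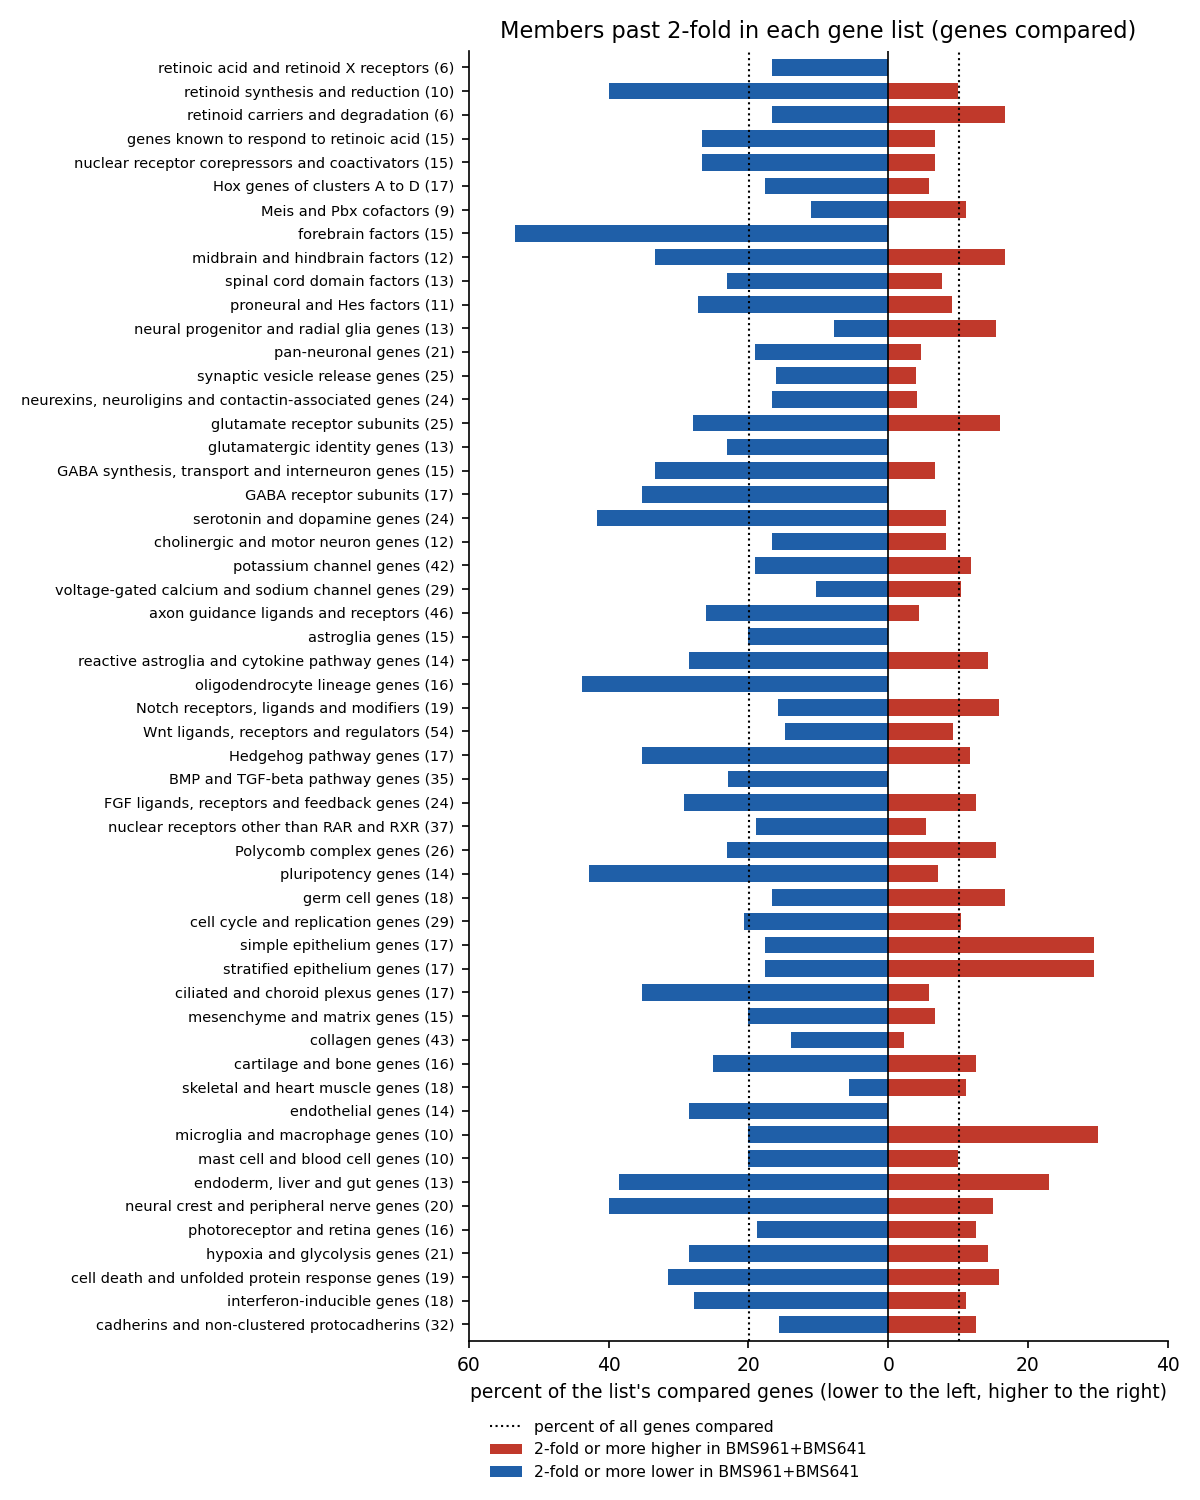
Percent of the compared genes of each of 54 lists that were at least 2-fold higher (red, to the right) or lower (blue, to the left) in BMS961+BMS641, with the number of genes compared in parentheses. Dotted lines mark the 10.2% and 19.9% of all genes compared. Forebrain factors reach furthest to the left (8 of 15), and simple and stratified epithelium genes (5 of 17 each) and microglia genes (3 of 10) furthest to the right.

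Other nuclear receptors included 2 hepatocyte nuclear factors that were high in VitaminA. Hnf4g stood at 379.9 ppm in VitaminA, 19.1 ppm in ATRA, 40.9 ppm in BMS753 and 26.4 ppm in BMS961+BMS641 and Hnf4a at 99.6 ppm in VitaminA, 83.3 ppm in ATRA, 13.5 ppm in BMS753 and 9.21 ppm in BMS961+BMS641. Rora, an orphan receptor of cerebellar and other neurons, was higher, at 348 ppm in VitaminA, 833 ppm in ATRA, 479 ppm in BMS753 and 1276 ppm in BMS961+BMS641, and was detected in every BMS961+BMS641 spot. Of 37 genes 2 were higher and 7 lower, or 4 and 6 with ratios centred.

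Polycomb genes split within a single complex. Eed, a core subunit of the complex that methylates a lysine of histone H3, stood at 259 ppm in VitaminA, 6.57 ppm in ATRA, 3.65 ppm in BMS753 and 5.41 ppm in BMS961+BMS641. Suz12, another core subunit, had 65.4 ppm in VitaminA, 21.6 ppm in ATRA, 30.2 ppm in BMS753 and 19.4 ppm in BMS961+BMS641, and the catalytic Ezh2 was equal, at 32.1 ppm against 31.7 ppm. Jarid2, an accessory subunit, was higher, with 348 ppm against 141 ppm, 1.30. In the other Polycomb complex Phc2 stood at 69.7 ppm in VitaminA, 107 ppm in ATRA, 88.5 ppm in BMS753 and 357 ppm in BMS961+BMS641 and Cbx8 at 3.15 ppm in VitaminA, 8.43 ppm in ATRA, 5.20 ppm in BMS753 and 25.9 ppm in BMS961+BMS641, while Bmi1 was lower (2.47 ppm against 10.9 ppm). Over the list 4 of 26 genes were higher and 6 lower.

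Of 14 pluripotency genes compared, 4 stood 4-fold above every other section in VitaminA. Over all genes compared that were listed in all sections, 355 of 14736 did so (2.41%). Sall4 stood at 144 ppm in VitaminA, 4.58 ppm in ATRA, 24.1 ppm in BMS753 and 7.72 ppm in BMS961+BMS641, Dppa3 at 47.9 ppm in VitaminA, 3.65 ppm in ATRA, 5.38 ppm in BMS753 and 4.58 ppm in BMS961+BMS641 and Tfcp2l1 at 69.8 ppm in VitaminA, 7.23 ppm in ATRA, 13.4 ppm in BMS753 and 15.7 ppm in BMS961+BMS641. Zfp42, also called Rex1, had 0.117 ppm against 10.0 ppm. Sall4 was the least even of them, with quadrants from 88.4 to 199 ppm in VitaminA. Pou5f1, the core factor Oct4, was low and equal, at 8.42 ppm in VitaminA, 7.06 ppm in ATRA, 9.46 ppm in BMS753 and 7.49 ppm in BMS961+BMS641, and Nanog was under the limit in both. Tbx3 was higher in BMS961+BMS641, at 35.9 ppm in VitaminA, 24.0 ppm in ATRA, 36.3 ppm in BMS753 and 219 ppm in BMS961+BMS641. In all 1 of 14 genes was higher and 6 were lower, with ratios centred as well.

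Genes of the cell cycle were 3 of 29 higher and 6 lower, or 5 and 6 with ratios centred. Mki67, the Ki-67 marker of dividing cells, stood at 12.6 ppm in VitaminA, 1.06 ppm in ATRA, 4.17 ppm in BMS753 and 1.07 ppm in BMS961+BMS641. Mcm7, of the replication helicase, had 33.8 ppm in VitaminA, 0.777 ppm in ATRA, 2.66 ppm in BMS753 and 1.23 ppm in BMS961+BMS641, and Mcm6, of the same helicase, 31.8 ppm in VitaminA, 46.4 ppm in ATRA, 39.9 ppm in BMS753 and 120.3 ppm in BMS961+BMS641. Cenpe, a motor of the kinetochore, was higher, with 132 ppm against 40.3 ppm, 1.68, and Top2a and Aurka were lower, with 1.93 ppm against 7.22 ppm and 1.98 ppm against 7.29 ppm. Parts of a single complex were thus apart, and Cdk1 and Pcna were under the limit in both sections.

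Simple epithelium genes had the highest ratio of summed levels of the 54 lists. The 23 simple epithelium genes listed in both sections summed to 2981 ppm in BMS961+BMS641, 438 ppm in VitaminA, 299 ppm in ATRA and 438 ppm in BMS753. Epcam, an adhesion protein of epithelia and of stem cells, stood at 11.5 ppm in VitaminA, 10.4 ppm in ATRA, 6.36 ppm in BMS753 and 921 ppm in BMS961+BMS641. Ocln, of tight junctions, had 41.5 ppm in VitaminA, 22.4 ppm in ATRA, 45.8 ppm in BMS753 and 897 ppm in BMS961+BMS641, Cdh1, the E-cadherin, 41.2 ppm in VitaminA, 39.6 ppm in ATRA, 52.7 ppm in BMS753 and 502 ppm in BMS961+BMS641, and Grhl2, a factor that holds epithelial identity, 72.9 ppm in VitaminA, 52.3 ppm in ATRA, 62.9 ppm in BMS753 and 478 ppm in BMS961+BMS641. All 4 were detected in over 97% of BMS961+BMS641 spots, and together they made up most of the summed level there. Of 17 genes compared 5 were higher and 3 lower, and the list median was -0.07, so most members did not follow. Krt8 (18.7 ppm against 52.5 ppm), Tjp3 (5.12 ppm against 22.1 ppm) and Esrp2 (14.7 ppm against 36.1 ppm) were lower. Defining genes of epithelia were near 0 in BMS961+BMS641, with Krt18 at 3.59, Krt19 at 0.475, Cldn3 at 0.970, Cldn6 at 0.0658 and Cldn7 at 0.372 ppm. Whether an epithelium was present was not tested.

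Among stratified epithelium genes 5 of 17 were higher and 3 lower, and 4 and 4 with the lowest class at 0. Dsg2, a desmosomal cadherin, had 15.1 ppm in VitaminA, 64.3 ppm in ATRA, 22.2 ppm in BMS753 and 102 ppm in BMS961+BMS641, Perp 2.28 ppm in VitaminA, 1.22 ppm in ATRA, 3.48 ppm in BMS753 and 26.4 ppm in BMS961+BMS641, Trp63 142 ppm against 59.5 ppm and Jup 32.0 ppm against 14.2 ppm. The basal keratins Krt5 and Krt14 were at 0.362 and 2.59 ppm in BMS961+BMS641. Itga6, an integrin of basal cells, was lower, with 143 ppm in VitaminA, 13.6 ppm in ATRA, 24.7 ppm in BMS753 and 37.1 ppm in BMS961+BMS641. In the cadherin family 4 of 32 genes were higher and 5 lower, or 6 and 3 with ratios centred. Cdh15, the M-cadherin of muscle, stood beside Cdh1, at 15.3 ppm in VitaminA, 8.95 ppm in ATRA, 19.4 ppm in BMS753 and 649 ppm in BMS961+BMS641.

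Some markers of other cell types were high in BMS961+BMS641 beside markers of the same types that were not. Cym, a gastric protease of young animals, stood at 1.45 ppm in VitaminA, 0.820 ppm in ATRA, 0.972 ppm in BMS753 and 622 ppm in BMS961+BMS641, while the stomach genes Pga5 and Tff1 were at 0.176 and 0.850 ppm in BMS961+BMS641. Rapsn, which anchors acetylcholine receptors in muscle, stood at 2.38 ppm in VitaminA, 4.94 ppm in ATRA, 3.51 ppm in BMS753 and 604 ppm in BMS961+BMS641, while the muscle factors Myod1 and Myog were at 0.708 and 0.690 ppm. Cpa3, a mast cell protease, stood at 3.16 ppm in VitaminA, 1.77 ppm in ATRA, 7.30 ppm in BMS753 and 424 ppm in BMS961+BMS641, while the mast cell genes Cma1, Tpsb2 and Fcer1a were at 0.173, 0.650 and 0.321 ppm. All 3 were detected in over 95% of BMS961+BMS641 spots and under 8% of VitaminA spots. Mybpc1, a myosin-binding protein of muscle, was higher too, with 174 ppm against 62.4 ppm, as was the Cdh15 given above. Of 18 muscle genes compared 2 were higher and 1 lower, with a median of -0.38, and the 31 of the list summed to 1662 ppm against 1156 ppm. Rapsn alone, at 604 ppm against 2.38 ppm, differed by more than these sums did, so the rest of the list was not higher in sum. Of 10 microglia genes compared, 3 were higher and 2 lower, or 3 and none with ratios centred. The lower ones were Tmem119 (14.6 ppm against 36.1 ppm) and Ptprc (9.38 ppm against 23.6 ppm). Cx3cr1 had 22.7 ppm in VitaminA, 25.2 ppm in ATRA, 37.7 ppm in BMS753 and 102 ppm in BMS961+BMS641 and Adgre1 28.0 ppm in VitaminA, 24.9 ppm in ATRA, 44.2 ppm in BMS753 and 75.0 ppm in BMS961+BMS641, but the defining C1qa, Trem2, Tyrobp and Aif1 were at 0.945, 1.06, 0.915 and 1.74 ppm.

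Some markers of mesenchyme, vessels and nerve were higher in VitaminA. Lum, a matrix proteoglycan of fibroblasts, stood at 139.6 ppm in VitaminA, 12.5 ppm in ATRA, 27.2 ppm in BMS753 and 12.9 ppm in BMS961+BMS641, Acta2, the smooth muscle actin, at 78.4 ppm in VitaminA, 2.30 ppm in ATRA, 6.76 ppm in BMS753 and 7.91 ppm in BMS961+BMS641 and Col15a1, of basement membranes, at 345 ppm in VitaminA, 30.0 ppm in ATRA, 46.2 ppm in BMS753 and 25.1 ppm in BMS961+BMS641. The lists they belong to did not stand out by their share of lower genes. Of 15 mesenchyme genes 1 was higher and 3 were lower (20.0%, beside 19.9% of all genes). The mesenchyme median was -0.08, above the -0.25 of all genes. Of 43 collagen genes 1 was higher and 6 were lower (13.953%), or 2 and 3 with ratios centred. The collagen median, at -0.49, was below that of all genes. Fbn1, a fibrillin of the matrix, was the higher mesenchyme gene, at 145 ppm in VitaminA, 48.3 ppm in ATRA, 73.2 ppm in BMS753 and 479 ppm in BMS961+BMS641. Flt1, a VEGF receptor, was lower, with 761 ppm in VitaminA, 449 ppm in ATRA, 245 ppm in BMS753 and 194 ppm in BMS961+BMS641, among 4 of 14 endothelial genes, none being higher, or 2 lower and 1 higher with ratios centred. Its quadrants in BMS961+BMS641 varied from 108 to 271 ppm. Neural crest genes had 3 of 20 higher and 8 lower, or 4 and 5 with ratios centred, with Mitf of melanocytes at 407 ppm in VitaminA, 87.6 ppm in ATRA, 145 ppm in BMS753 and 100.5 ppm in BMS961+BMS641 and the neurotrophin receptors Ntrk2 and Ntrk3 at 130.1 ppm against 321 ppm and 114 ppm against 267 ppm. Prph2, of photoreceptor discs, had 106 ppm in VitaminA, 3.03 ppm in ATRA, 2.76 ppm in BMS753 and 4.45 ppm in BMS961+BMS641. Its list did not follow: of 16 photoreceptor and retina genes 2 were higher and 3 lower, or 5 and 2 with ratios centred. The median of that list was 0.20, above the -0.25 of all genes.

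Genes of cell state differed both ways. Hypoxia and glycolysis genes were 3 of 21 higher and 6 lower, or 3 and 3 with ratios centred, with Hif1a at 66.1 ppm in VitaminA, 8.76 ppm in ATRA, 20.8 ppm in BMS753 and 10.2 ppm in BMS961+BMS641 and Pdk1, one of the targets of its protein, at 22.0 ppm in VitaminA, 13.3 ppm in ATRA, 23.3 ppm in BMS753 and 68.6 ppm in BMS961+BMS641. Genes of cell death and the unfolded protein response were 3 of 19 higher and 6 lower, or 3 and 2 with ratios centred. Atf4, a factor of the stress response, stood at 3.15 ppm in VitaminA, 0.0916 ppm in ATRA, 0.443 ppm in BMS753 and 23.1 ppm in BMS961+BMS641, and Trp53, the p53 gene, at 20.0 ppm in VitaminA, 5.49 ppm in ATRA, 13.1 ppm in BMS753 and 63.8 ppm in BMS961+BMS641. Interferon-inducible genes were 2 of 18 higher and 5 lower and were split between the sections. Irgm2, a GTPase of immunity, stood at 3.61 ppm in VitaminA, 1.07 ppm in ATRA, 1.56 ppm in BMS753 and 396 ppm in BMS961+BMS641, and Psmb9, of the immunoproteasome, at 116 ppm in VitaminA, 2.05 ppm in ATRA, 2.30 ppm in BMS753 and 0.943 ppm in BMS961+BMS641.

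The genes that stood apart in a single section were a large part of the widest differences. A gene was counted here when its level plus 1 ppm was at least 4 times that in each of the 3 other sections, over the 14736 genes compared that were listed in all 4. BMS961+BMS641 had 383 such genes (2.6%) and VitaminA 355 (2.41%). They made up 383 of the 609 genes at least 4-fold higher in BMS961+BMS641 (62.9%), and 355 of the 803 at least 4-fold lower (44.2%). A filter of 5 ppm in any section left 15841 genes listed in all 4. Of these ATRA had 407 such genes and BMS753 158, with 383 for BMS961+BMS641 and 355 for VitaminA. The shares of genes above or below given here are of the 14736. Standing 4-fold below every other section was rare, with 4 genes (0.0271%) for BMS961+BMS641 and 1 (0.00679%) for VitaminA. A4gnt, a gastric mucin glycosyltransferase, and Spdye4b were 2 of the 4. A4gnt stood at 144 ppm in VitaminA, 97.1 ppm in ATRA, 55.6 ppm in BMS753 and 6.35 ppm in BMS961+BMS641 and Spdye4b at 57.6 ppm in VitaminA, 360.2 ppm in ATRA, 15.2 ppm in BMS753 and 3.00 ppm in BMS961+BMS641. The gene below in VitaminA was Cmklr1, the chemerin receptor, at 28.3 ppm in VitaminA, 378 ppm in ATRA, 150.1 ppm in BMS753 and 411 ppm in BMS961+BMS641.

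Beside Cym, Rapsn, Cpa3, Irgm2 and Epcam, the genes furthest above in BMS961+BMS641 by the naming rule were Sowahc, Grxcr2, Riok1, Ifi44 and Brk1. Sowahc was at 3.25 ppm in VitaminA, 1.29 ppm in ATRA, 0.912 ppm in BMS753 and 316 ppm in BMS961+BMS641. Grxcr2, of hair cell stereocilia, was at 11.2 ppm in VitaminA, 13.4 ppm in ATRA, 26.0 ppm in BMS753 and 862 ppm in BMS961+BMS641. Brk1, a small subunit of the WAVE complex that drives actin assembly, was at 3.27 ppm in VitaminA, 6.72 ppm in ATRA, 2.78 ppm in BMS753 and 268 ppm in BMS961+BMS641. In VitaminA the first 10 were Mocs2, Psmd9, Pgls, Zfp239, Atp6v0b, Txndc11, Tsga10ip, Plpp2, Dipk1b and Lta4h. Mocs2, of molybdenum cofactor synthesis, was at 302 ppm in VitaminA, 0.875 ppm in ATRA, 1.24 ppm in BMS753 and 0.993 ppm in BMS961+BMS641. Lta4h, which makes leukotriene B, was at 174 ppm in VitaminA, 4.66 ppm in ATRA, 19.1 ppm in BMS753 and 1.86 ppm in BMS961+BMS641. Psmd9 assembles the proteasome, Pgls belongs to the pentose phosphate pathway and Atp6v0b to the proton pump of lysosomes, which are functions of cells in general. In BMS961+BMS641 the 10 VitaminA genes lay between 0.198 ppm (Atp6v0b) and 4.75 ppm (Txndc11).

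Genes that stood apart were spread over the whole section. The median gene of the 383 was at 178 ppm in BMS961+BMS641 and 12.1 ppm in VitaminA, and was detected in 85.2% of BMS961+BMS641 spots (quartiles 63.3% and 94.2%). In the section where it was detected most among the other 3, the median was 19.7%. Of the 383, 322 were detected in over 50% of spots and 148 in over 90%. By contrast the median gene among all those compared was detected in 21.9% of BMS961+BMS641 spots. The 355 VitaminA genes had a median of 82.1 ppm in VitaminA and 5.25 ppm in BMS961+BMS641, and a median detection of 66.5%, against 13.0% in the best other section. The level chose these genes, so their detection describes the choice and is no test of it.

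**Figure D4:**
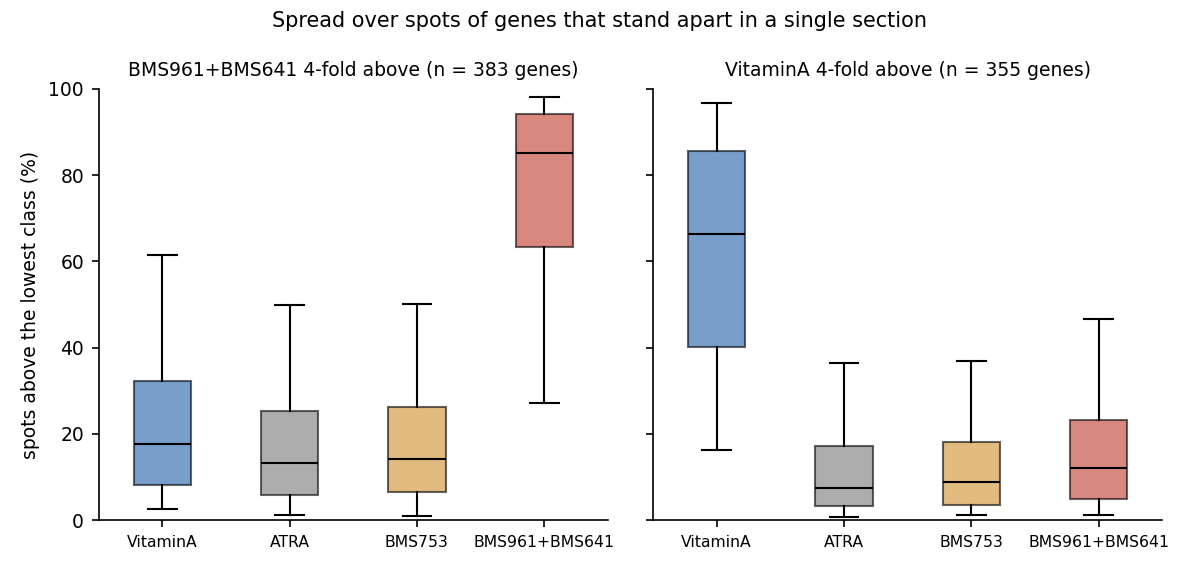
Percent of spots above the lowest class for the 383 genes that stand 4-fold above every other section in BMS961+BMS641 (left) and the 355 that do so in VitaminA (right), in each of the 4 sections. Boxes show quartiles with the median as a line, and whiskers the 5th and 95th percentiles over genes. The medians in the chosen sections are 85.2% and 66.5%, and those in the other sections lie below 20%.

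Quadrants of a section gave like values for these genes. The ratio of the highest to the lowest quadrant had a median of 1.31 over the 383 genes, and 350 were within 2-fold, while over all genes compared the median was 1.83. For the VitaminA genes the median was 1.27, 334 of 355 were within 2-fold, and all genes had 1.47. The sets differ from all genes in level, and levels were not matched here. The 383 genes took between 5.13% and 19.5% of the signal of a BMS961+BMS641 spot (median 9.26%), and between 0.477% and 1.13% in a VitaminA spot. The 355 genes took between 2.47% and 6.29% of a VitaminA spot, and between 0.225% and 1.77% of a BMS961+BMS641 spot. The level of the section chose both sets, so these shares restate the choice. At least 141 of the 383 genes were above the lowest class in each BMS961+BMS641 spot. In no VitaminA spot were more than 191 of them above it.

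Few of these genes sat next to each other on chromosomes. Of 382 that could be placed in the order of RefSeq genes, 16 (4.19%) had a neighbour of the same set, and 5.08% of the other genes had such a neighbour. For VitaminA the values were 27 of 355 (7.61%) and 4.62%. Both sets had genes on 20 chromosomes. Each treatment is 1 section, processed as its own library, so treatment, organoid, section and library cannot be told apart for them.

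**Figure D5:**
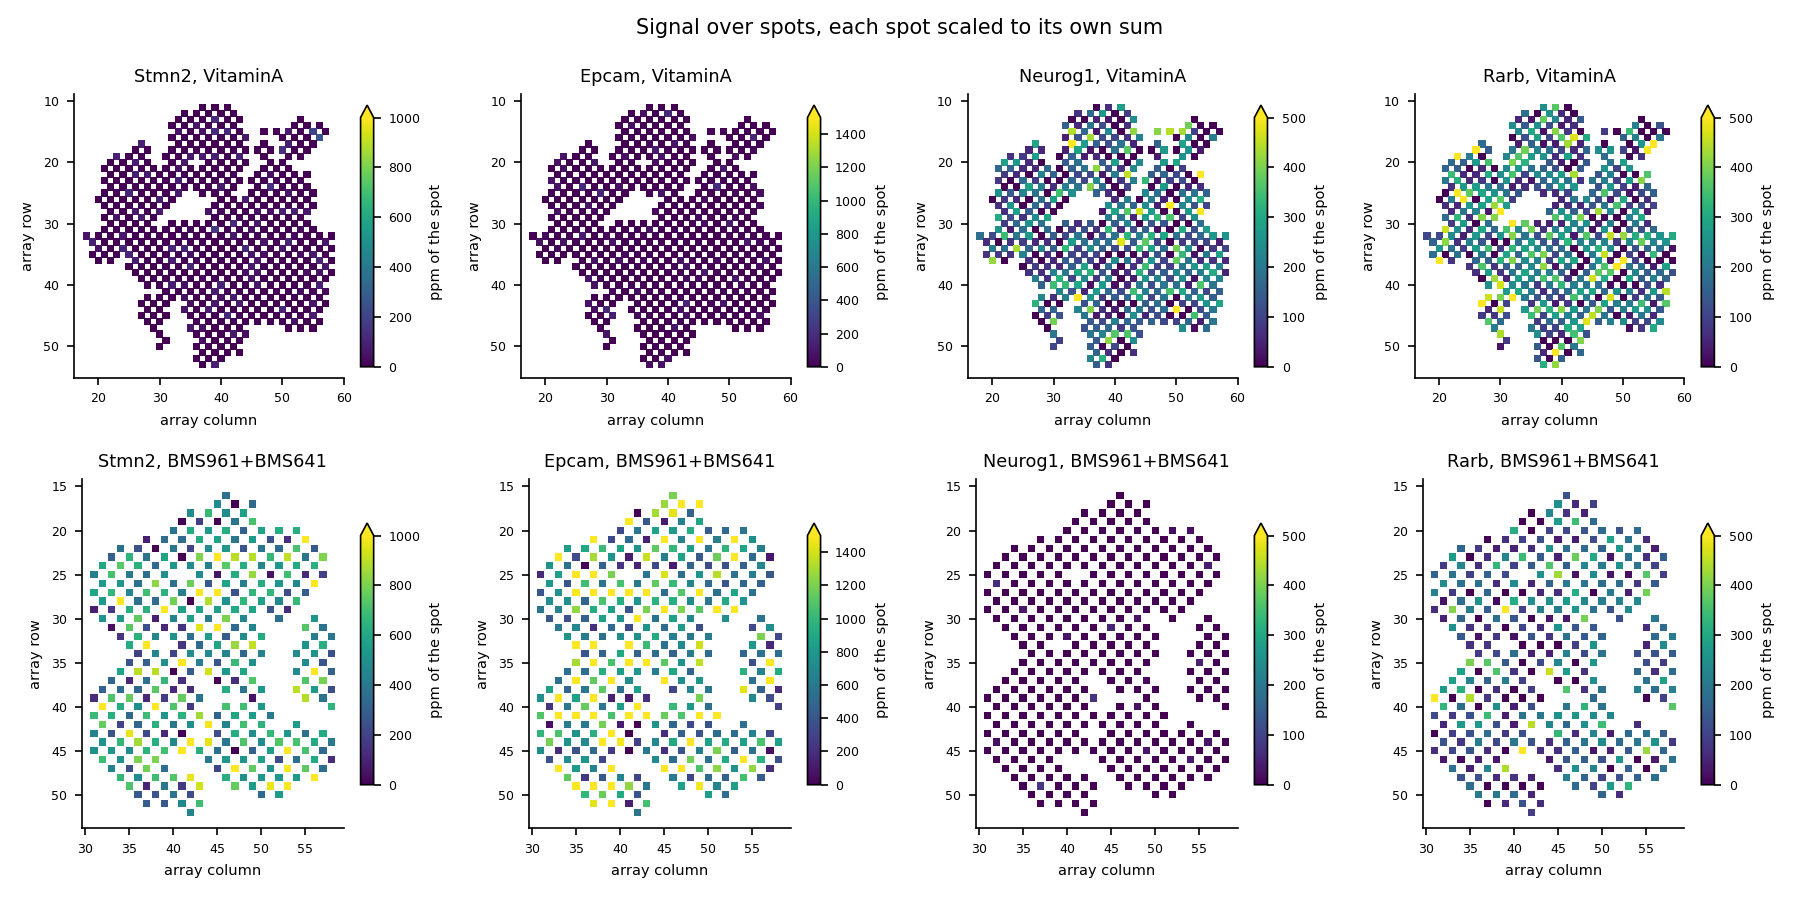
Signal of Stmn2, Epcam, Neurog1 and Rarb in each spot of VitaminA (upper row) and BMS961+BMS641 (lower row), as ppm of the sum of that spot, drawn at the array row and column. Colour scales are shared between the sections of a gene and clipped at their top. Stmn2 and Epcam cover the BMS961+BMS641 section and Neurog1 the VitaminA section with no separate region, and Rarb is present in both. These 4 genes were chosen for the maps after their values were seen.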

How the data were processed

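The authors deposited a normalised signal for each gene in each spot, with mm9 named as build in the submitters' processing notes. Quantile normalisation within a section, which only the names of the deposited files state, was checked on the values: the spots share a single sorted profile up to a multiplier per spot. Sections were not normalised to each other. Aligner, counting and spot filter: not given in the sources used here. Symbols were updated through RefSeq (22097 matched directly, 88 by synonym, 33 kept).

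Levels, log2 ratios (1 ppm added) and detection were computed as the text describes. With 1 section per group, no test, p-value or standard error was computed, and calls are counts past 2-fold or 4-fold. Quadrants split spots at the median of both array coordinates. Members, lists, rules and tests were chosen with earlier results of these data known. Named by rule were genes of at least 20 ppm, detected in at least 5% of spots, whose quadrants did not overlap: the first 10 of each group that stands apart and up to 4 past 2-fold per list. Predicted, ribosomal protein and mitochondrial genes were left out of it, and some genes that it picks are not reported here. Another 17 genes were always named, and further list members, the repeat search and the mapped genes were chosen after values were seen. Alternatives changed scaling, filter, pseudocount, summary over spots and the lowest class. Steps were tested on simulated data. Promoter windows were those of RefSeq (GRCm38.p6). Computations ran in Python 3.11.15 with pandas 2.3.3, numpy 2.4.6 and scipy 1.17.1, and figures in matplotlib 3.10.9.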

Additional observations from a re-analysis of the deposited data

How the results depend on the processing

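With 1 section per treatment and unknown depth, settings show how far counts and ratios move, not how certain they are. No paired analysis was possible because each group has 1 section. Of 171 genes picked by the naming rule, which takes genes past 2-fold, 136 kept direction and 2-fold in all 13 alternatives (10 planned, 3 added after the data were seen). The alternatives that changed only a filter on level or detection choose which genes are compared. They could not change the ratio of a named gene, so only the others bear on that count. Taking the median over spots moved every count: 4655 genes were higher and 1590 lower, 728 stood above and 12 below in BMS961+BMS641, and 767 stood above and 823 below in VitaminA. It also turned the log2 ratios of Aldh1a3 (2.06), Hoxb8 (0.53), Chrna3 (2.04), Ccno (1.36), Col9a3 (1.98), Plvap (1.09) and Tmem119 (0.66). Each of these was detected in under 50% of spots in both sections, so its median lay in the lowest class or at 0. The lower genes numbered 1836 with a pseudocount of 5 ppm and 1588 with a filter of 20 ppm, which tests fewer genes. Genes 4-fold below in BMS961+BMS641 numbered 1 with ratios centred, 2 with quantile normalised levels, equal spot sums or a pseudocount of 5 ppm, 28 with a pseudocount of 0.1 ppm, 14 with the lowest class at 0 and 11 with equal spot sums as well. In VitaminA they numbered 3 with a pseudocount of 0.1 ppm and 2 with ratios centred, quantile normalised levels, equal spot sums, the lowest class at 0, both of these, or tie class indices. The cause of the other moves was not tested.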

Other observations

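Germ cell genes were 3 of 18 higher in BMS961+BMS641 and 3 lower. Beside Stra8, Tdrd9, of the pathway that silences transposons, stood at 22.5 ppm in VitaminA, 43.9 ppm in ATRA, 28.6 ppm in BMS753 and 62.1 ppm in BMS961+BMS641, and Acrv1, of the sperm acrosome, had 17.6 ppm against 6.61 ppm. Tex14, of germ cell bridges, was lower, with 347 ppm in VitaminA, 49.5 ppm in ATRA, 59.2 ppm in BMS753 and 113 ppm in BMS961+BMS641, and so was Ddx4, the germ cell helicase, with 2.33 ppm against 12.7 ppm. Germ cell genes were thus split between the sections.

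Genes of cilia and choroid plexus were 1 of 17 higher and 6 lower, or 1 and 4 with ratios centred. Dnah9, a motor of motile cilia, stood at 287 ppm in VitaminA, 77.2 ppm in ATRA, 126 ppm in BMS753 and 89.3 ppm in BMS961+BMS641, and Foxj1, the factor that switches on motile cilia, had 2.34 ppm against 10.3 ppm. Cholinergic and motor neuron genes were 1 of 12 higher and 2 lower. The receptor subunit Chrna5 was the higher one, at 77.4 ppm in VitaminA, 17.2 ppm in ATRA, 78.8 ppm in BMS753 and 276 ppm in BMS961+BMS641. Cartilage and bone genes were 2 of 16 higher and 4 lower, or 4 and 3 with ratios centred. Alpl, a phosphatase of mineralising tissue, stood at 170.3 ppm in VitaminA, 25.8 ppm in ATRA, 28.7 ppm in BMS753 and 29.5 ppm in BMS961+BMS641, and Hapln1, which links hyaluronan to proteoglycans, at 20.9 ppm in VitaminA, 14.5 ppm in ATRA, 41.0 ppm in BMS753 and 69.8 ppm in BMS961+BMS641.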
